A study of Mus musculus with 18 samples.

Results

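The genes described here are 62 RNAs named either for pluripotency or for a neighbouring gene on the other strand, measured in mouse gastruloids. A gene was a member if its name was Platr followed by a number, or ended in "os" (opposite strand), with or without a digit, after a stem that was itself a gene name in the table; the named neighbour is called the partner. Among these names, members were chosen by their counts, at least 180 summed over all libraries. Of 55385 genes in the count table, 331 had such a name, and 62 were kept: 14 of 28 Platr genes and 48 of 303 antisense genes, with 47 distinct partners. Summed counts chose the members, so that a gene active in a single group could enter only through that group. Without their highest group, 10 members would have missed the threshold scaled to the remaining libraries: Foxl2os, Gad1os, Grip1os3, Hoxb5os, Lhx1os, Phf2os1 and Zeb2os (controls of 96 h), Platr5 and Wt1os (controls of 48 h) and Dnmt3bos (early libraries of 72 h). Their levels are a description of how they were chosen, and their changes are given without a p-value. Igf2os had 159 counts outside the controls of 96 h, which meets the scaled threshold but not 180, and its changes also carry no p-value. Arhgap33os (179), Ccdc142os (179), Zbtb11os1 (171) and Tomm6os (170) likewise had fewer than 180 counts outside their highest group. Like Igf2os, they are not among the 10. Nearest to the threshold, H3f3aos (179 counts), Vax2os (164) and Platr26 (161) were left out, and Gad1os (184), Lhx1os (185) and Zeb2os (188) were kept.

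Gastruloids are aggregates of embryonic stem cells that break symmetry in culture and form the germ layers along an axis. All were wild type, of strain 129/SVEV, and a condition's aggregates were pooled per tube before polyA RNA was extracted. CHIR inhibits the kinase GSK3 and thereby activates Wnt/β-catenin signalling. It was given from 48 to 72 h after aggregation (control arm) or from 24 to 48 h (early arm), and each arm was collected at 48, 72 and 96 h with 3 libraries per group. Controls of 48 h had thus received no CHIR. The early arm ended its pulse at 48 h and the control arm at 72 h. The question, per the labels, is what the time of the Wnt pulse does to expression. Levels are in CPM (counts per TMM-scaled library size), given by replicate 1, 2 and 3 or as mean ± SD with n = 3. Changes are log2 fold changes ± SE. Adjusted p-values are from edgeR's quasi-likelihood test with Benjamini-Hochberg adjustment over 16041 genes, unless limma is named, and a change is called at an adjusted p under 0.05. Whether the 3 libraries of a group stem from different cultures is not in the labels, and p-values then measure a spread between samples that may be technical only. In pooled aggregates, fewer cells of a type and less RNA per cell cannot be told apart.

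Total counts were 14841728 to 24536538 per library. Control replicate 3 differed from replicates 1 and 2 of its age more than other replicates did (chi-square over its degrees of freedom 15.4 to 28.1, against 1.41 to 7.90 for all remaining pairs), so counts of calls are also given without the 3 control libraries numbered 3. The 5 epiblast markers summed to 1700 to 2056 CPM in all groups except the controls of 96 h, at 313 to 591 CPM. Outside the controls of 96 h, Pou5f1 gave most of this sum (1210 to 1369 CPM), and other markers moved in opposite directions. Over the control pulse Utf1 (330 to 408, then 46.0 to 63.5 CPM) and Sox2 (160 to 189, then 28.5 to 61.1 CPM) fell. Nanog rose (39.2 to 49.7, then 242 to 342 CPM). Summed primitive streak markers went from 6.93 to 7.89 CPM to 962 to 1613 CPM over that step. Markers of blood reached at most 0.513 CPM in sum, those of fibroblasts 5.65 to 26.4 CPM and those of extraembryonic endoderm 27.4 to 144 CPM. Trophoblast markers, a list that includes the tailbud gene Cdx2, summed to 250.5 to 373 CPM in the controls of 96 h and to at most 42.3 CPM elsewhere.

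Platr genes, for pluripotency-associated transcript, are long non-coding RNAs catalogued in mouse embryonic stem cells by their loss on differentiation. Their names record that expression pattern and no shared sequence or mechanism. Antisense and divergent RNAs are a different kind of group. Each is transcribed from the strand opposite a known gene, often from the same promoter region, which in mammals commonly fires in both directions. Some such RNAs act on the partner, many have no known role, and several genes of this naming style encode proteins of their own.

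In the annotation, 9 Platr genes were lincRNAs, 4 processed transcripts and 1, Platr25, a protein-coding gene. Among the antisense members, 34 were antisense RNAs, 5 lincRNAs, 2 bidirectional-promoter RNAs, 1 a processed transcript and 1 a transcribed pseudogene (Abhd11os). The other 5 were annotated as protein coding: Brd3os, Ccpg1os, Cebpzos, Slc7a6os and Wdr83os. Of the 48 antisense genes, 17 overlapped the partner at the starts, 11 stood head to head with it, 7 lay inside it, 6 overlapped at the ends, 6 stood tail to tail and 1 (Hoxb5os) lay around its partner. Starts were within 1 kb of the partner's start for 21. No Platr gene lay under an exon of the other strand, whereas 30 of 48 antisense genes had some exon bases there.

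RefSeq promoters (GRCm38.p6, 250 bases before to 50 after a start) matched 9 Platr and 32 antisense members. The windows below belong to members that were called in at least 9 of the 10 contrasts and have a single promoter in that table. Each overlaps an exon of its own gene, and that of Evx1os also lies inside the Evx1 gene. Capitals mark a match to one of 6 short motifs, searched on both strands: CTTTGAT, read by TCF/LEF factors at the end of the Wnt pathway, CTTTGTT, read by both TCF/LEF and SOX factors, AAGGTCA, read by the orphan nuclear receptor Esrrb, ATGCAAA, the core of the octamer, GGGCGGG, the GC box, and TATAAA.
Platr14, chr2:104559209-104559508, plus strand: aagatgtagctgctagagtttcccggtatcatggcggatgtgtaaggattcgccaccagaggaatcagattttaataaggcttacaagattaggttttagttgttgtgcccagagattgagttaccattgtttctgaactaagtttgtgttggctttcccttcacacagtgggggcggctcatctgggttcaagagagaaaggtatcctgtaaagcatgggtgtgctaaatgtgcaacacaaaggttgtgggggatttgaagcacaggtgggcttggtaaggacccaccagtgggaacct
Platr10, chr3:75655682-75655981, minus strand: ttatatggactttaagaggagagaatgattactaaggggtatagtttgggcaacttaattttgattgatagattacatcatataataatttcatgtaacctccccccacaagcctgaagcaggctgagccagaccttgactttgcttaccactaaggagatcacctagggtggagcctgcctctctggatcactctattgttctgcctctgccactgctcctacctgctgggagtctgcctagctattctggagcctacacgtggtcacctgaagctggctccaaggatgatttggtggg
Platr22, chr1:136695961-136696260, plus strand: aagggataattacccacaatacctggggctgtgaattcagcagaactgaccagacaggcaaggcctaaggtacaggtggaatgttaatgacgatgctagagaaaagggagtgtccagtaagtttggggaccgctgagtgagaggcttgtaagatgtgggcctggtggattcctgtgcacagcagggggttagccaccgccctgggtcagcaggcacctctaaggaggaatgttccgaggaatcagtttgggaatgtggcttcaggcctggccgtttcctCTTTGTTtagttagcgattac
Platr7, chr10:84553289-84553588, minus strand: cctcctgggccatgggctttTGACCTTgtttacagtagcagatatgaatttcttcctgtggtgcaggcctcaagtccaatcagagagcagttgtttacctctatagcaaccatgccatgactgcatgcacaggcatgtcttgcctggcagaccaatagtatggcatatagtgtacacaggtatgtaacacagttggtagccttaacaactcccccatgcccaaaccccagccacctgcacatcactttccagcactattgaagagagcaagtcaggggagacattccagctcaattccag
Evx1os, chr6:52314783-52315082, minus strand: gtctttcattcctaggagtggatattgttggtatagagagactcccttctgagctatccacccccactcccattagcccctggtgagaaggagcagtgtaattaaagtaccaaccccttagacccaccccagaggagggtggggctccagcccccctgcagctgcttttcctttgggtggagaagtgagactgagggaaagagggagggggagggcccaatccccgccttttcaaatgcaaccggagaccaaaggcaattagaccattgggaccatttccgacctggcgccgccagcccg

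The Platr22 window held 1 match, CTTTGTT, and the Platr7 window 1, TGACCTT, which is AAGGTCA on the other strand. The windows of Platr14, Platr10 and Evx1os held none of the 6. Counted by promoter, since some genes have several, CTTTGAT was found in 0 of 10 Platr and 0 of 34 antisense promoters, against 3.73% of all 32851 promoters. GGGCGGG was in 1 of 10 Platr promoters, 13 of 34 antisense promoters and 24 of 55 promoters of partners, against 25.6% of all promoters. The CTTTGTT, Esrrb, octamer and TATA motifs were each in 1 of the 10 Platr promoters, against 5.85%, 4.72%, 4.63% and 13.6% of all promoters. These are matches of letters in 1 window per start, not binding sites.

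A second set shows how close opposite starts can be in pairs whose genes behaved differently below. The bases between the starts of Cep83os and Cep83 in the annotation, 77 of them, have 75.3% G and C and partly underlie an exon of an uncharacterised gene, Gm49167. Between the RefSeq start of Lrp8os2 and that of a shorter Lrp8 transcript lie 138 bases, inside an intron of the full-length Lrp8 gene. Neither stretch held a match to the 6 motifs.
Cep83os to Cep83, chr10:94688577-94688653, minus strand: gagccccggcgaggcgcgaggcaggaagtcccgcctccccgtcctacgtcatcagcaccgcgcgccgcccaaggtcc
Lrp8os2 to Lrp8, chr4:107823023-107823160, minus strand: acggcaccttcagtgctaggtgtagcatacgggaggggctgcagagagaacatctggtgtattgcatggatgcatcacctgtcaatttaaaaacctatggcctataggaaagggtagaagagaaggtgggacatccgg

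By group mean, 12 of the 14 Platr genes were highest in the early libraries of 48 h, and the other 2, Platr10 and Platr5, in the controls of 48 h. Likewise 12 were lowest in the controls of 96 h, and Platr25 and Platr5 in those of 72 h. Summed over all 14, Platr reads made up 291 to 337 CPM in the controls of 48 h, 106 to 126 CPM at 72 h and 45.2 to 54.2 CPM at 96 h. In the early arm the sum was 350.02 to 360 CPM, then 267 to 283 CPM and 139 to 151 CPM. Platr10 gave 66.5%, 55.3% and 8.34% of these reads in the controls and 51.2%, 64.6% and 56.1% in the early arm, shares that are not corrected for length.

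**Figure D1:**
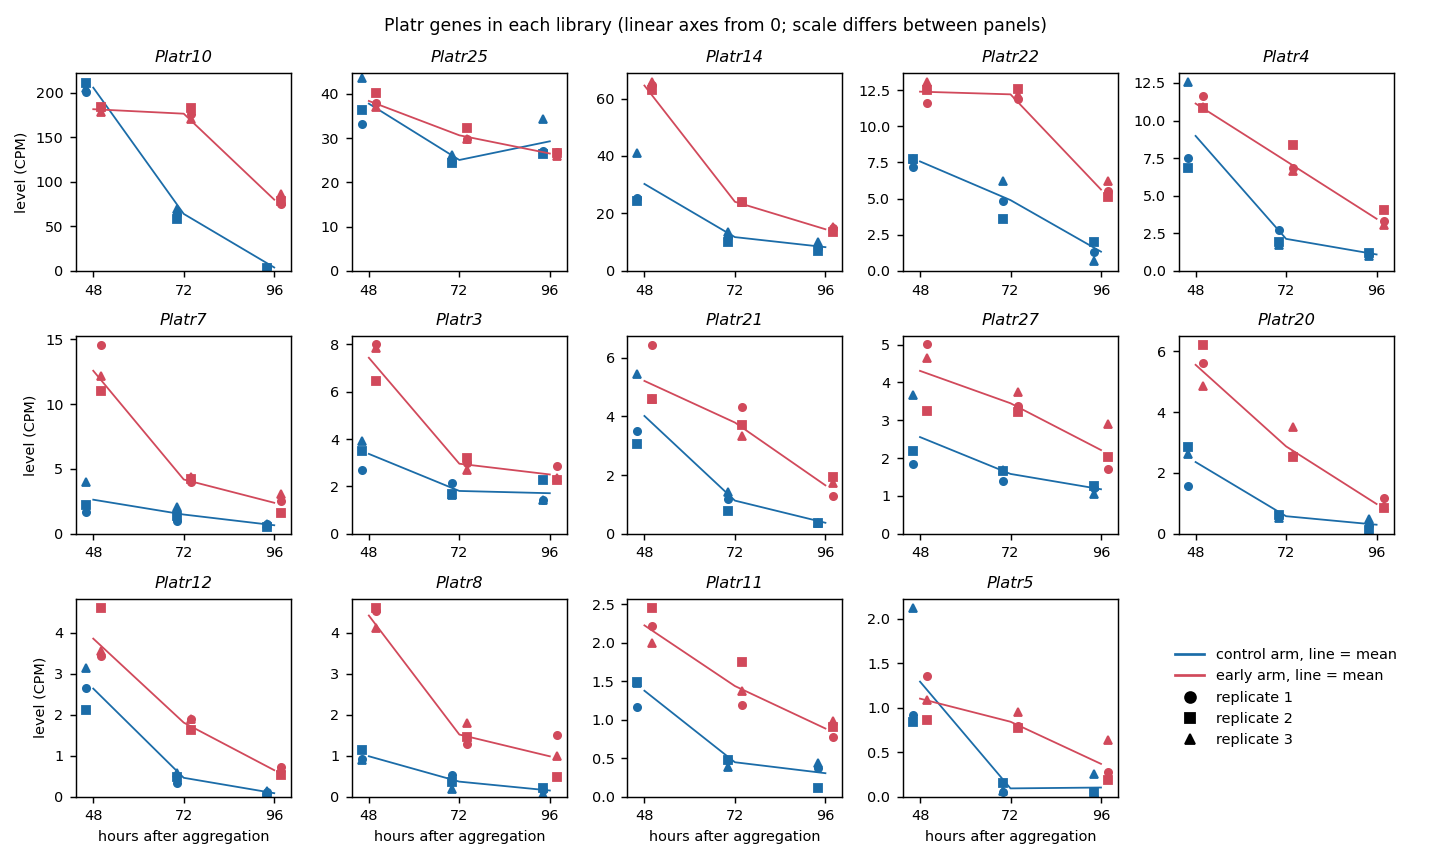
Level in CPM (y axis, linear from 0, its range differing by panel) of each of the 14 Platr genes against hours after aggregation (x axis). Points are single libraries, shaped by replicate number, blue for the control arm and red for the early arm, and lines join group means; at 72 h the early libraries lie above the controls in every panel.

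Platr10 (chr3:75647446-75655731, minus strand) had the most reads of the set. Its level in the controls was 201, 212 and 205 CPM at 48 h, 64.0, 58.7 and 69.4 CPM at 72 h, and 4.76, 3.69 and 3.30 CPM at 96 h. In the early arm it was 183, 184 and 178 CPM at 48 h, 176, 183 and 171 CPM at 72 h, and 75.1, 78.6 and 86.4 CPM at 96 h. The controls therefore fell at both steps, by 3.22-fold over the pulse (log2 fold change -1.69 ± 0.07, adjusted p = 4.27e-13) and by 15.9-fold over the day after it (-4.00 ± 0.10, adjusted p = 1.94e-15). The early arm did not pass the test over the day after its own pulse (-0.04 ± 0.06, adjusted p = 0.652) and fell from 72 to 96 h (-1.14 ± 0.07, adjusted p = 2.42e-09). Early exceeded control 2.76-fold at 72 h and 19.9-fold at 96 h, with no overlap of libraries. At 48 h it was lower in the early arm by a small margin (-0.18 ± 0.06, adjusted p = 0.0307), a call that was lost without control replicate 2 of 48 h (-0.16), control replicate 3 of 48 h (-0.18), early replicate 1 of 48 h (-0.18), early replicate 2 of 48 h (-0.19) or early replicate 3 of 48 h (-0.17), with adjusted p = 0.059 to 0.106.

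Platr14 (chr2:104559163-104571429, plus strand) and Platr7 (chr10:84547417-84553338, minus strand) differed from Platr10 in that the early libraries of 48 h stood above the untreated controls. Platr14 was at 25.4, 24.4 and 41.0 CPM at 48 h, 11.7, 10.01 and 13.6 CPM at 72 h, and 7.93, 6.95 and 9.98 CPM at 96 h in the controls. Its early libraries had 64.8, 62.9 and 65.8 CPM at 48 h, 24.2, 24.2 and 23.9 CPM at 72 h, and 14.9, 13.5 and 15.1 CPM at 96 h. All early libraries lay above all controls of their age. The difference was 1.101 ± 0.15, adjusted p = 6.63e-06 at 48 h, with 1.04 ± 0.16 at 72 h and 0.82 ± 0.17 at 96 h. Its fall in the early arm after the pulse was -1.42 ± 0.15, adjusted p = 7.7e-07. In the controls it fell over the pulse (-1.36 ± 0.16, adjusted p = 8.3e-07) and again to 96 h (-0.51 ± 0.18, adjusted p = 0.0223), though the later call was lost without control replicate 3 of 72 h (-0.40), control replicate 1 of 96 h (-0.47) or control replicate 2 of 96 h (-0.40), with adjusted p = 0.0694 to 0.102.

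Platr7 was at 1.68, 2.23 and 3.97 CPM at 48 h, 1.01, 1.35 and 2.08 CPM at 72 h, and 0.732, 0.489 and 0.748 CPM at 96 h in the controls and at 14.5, 10.99 and 12.2 CPM at 48 h, 3.97, 4.24 and 4.35 CPM at 72 h, and 2.54, 1.56 and 3.06 CPM at 96 h in the early arm. At 48 h this was 4.89 times the untreated level (2.29 ± 0.26, adjusted p = 8.48e-07). It remained higher at 72 h (1.52 ± 0.30, adjusted p = 0.000425) and at 96 h (1.83 ± 0.36, adjusted p = 0.000251). Over the control pulse it fell (-0.82 ± 0.32, adjusted p = 0.0318), a call lost without control replicate 3 of 48 h (-0.42), control replicate 1 of 72 h (-0.61) or control replicate 2 of 72 h (-0.77), with adjusted p = 0.0856 to 0.243. The following step to 96 h was also called (-1.14 ± 0.39, adjusted p = 0.0194) and was lost without control replicate 3 of 72 h (-0.84) or control replicate 2 of 96 h (-0.97), with adjusted p = 0.0736 to 0.102.

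Platr3 (chr2:135648907-135652063, plus strand) and Platr20 (chr11:51189833-51220418, minus strand) followed the same order at 48 h. Platr3 had 2.699, 3.51 and 3.91 CPM at 48 h, 2.13, 1.67 and 1.62 CPM at 72 h, and 1.42, 2.28 and 1.43 CPM at 96 h in the controls and 8.02, 6.44 and 7.84 CPM at 48 h, 2.98, 3.22 and 2.68 CPM at 72 h, and 2.87, 2.27 and 2.37 CPM at 96 h in the early arm, higher in the latter by 1.149 ± 0.18, adjusted p = 3.72e-05 at 48 h and 0.71 ± 0.21, adjusted p = 0.00888 at 72 h. By 96 h the Platr3 libraries of the arms met, at 1.42, 2.28 and 1.43 against 2.87, 2.27 and 2.37 CPM. That call (0.55 ± 0.21, adjusted p = 0.0311) was lost without control replicate 1 of 96 h (0.42), control replicate 3 of 96 h (0.47) or early replicate 1 of 96 h (0.45), with adjusted p = 0.0798 to 0.139. Platr20 had 1.58, 2.87 and 2.63 CPM at 48 h, 0.586, 0.625 and 0.520 CPM at 72 h, and 0.284, 0.109 and 0.499 CPM at 96 h in the controls and 5.61, 6.20 and 4.86 CPM at 48 h, 2.58, 2.53 and 3.52 CPM at 72 h, and 1.16, 0.852 and 0.924 CPM at 96 h in the early arm, and it was higher in the early arm at 48 h (1.24 ± 0.23, adjusted p = 0.000214), 72 h (2.28 ± 0.30, adjusted p = 6.4e-06) and 96 h (1.73 ± 0.39, adjusted p = 0.000899) with no overlap of libraries.

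Platr22 (chr1:136696211-136726142, plus strand) was, like Platr10, not called between 48 and 72 h in the early arm (-0.02 ± 0.17, adjusted p = 0.938). The controls had 7.18, 7.77 and 7.76 CPM at 48 h, 4.85, 3.60 and 6.24 CPM at 72 h, and 1.30, 2.01 and 0.686 CPM at 96 h. The early arm had 11.6, 12.5 and 13.04 CPM at 48 h, 11.9, 12.5 and 12.2 CPM at 72 h, and 5.53, 5.11 and 6.24 CPM at 96 h. Early libraries of 48 and 72 h lay within 11.6 to 13.04 CPM, above every control library. The excess was 0.71 ± 0.18, adjusted p = 0.00296 at 48 h, 1.33 ± 0.18, adjusted p = 1.26e-05 at 72 h and 2.05 ± 0.23, adjusted p = 5.07e-07 at 96 h. In the controls it fell from 72 to 96 h (-1.84 ± 0.24, adjusted p = 2.99e-06). Its fall over the control pulse (-0.64 ± 0.19, adjusted p = 0.00704) was lost without control replicate 2 of 72 h (-0.46), with adjusted p = 0.0504.

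Platr4 (chr3:41484024-41493192, minus strand) and Platr21 (chrX:139240226-139357738, minus strand) did not pass the test at 48 h, where control replicate 3 was the highest control library of both. Platr4 was at 7.54, 6.83 and 12.6 CPM at 48 h, 2.72, 1.93 and 1.75 CPM at 72 h, and 1.097, 1.19 and 0.998 CPM at 96 h in the controls and at 11.6, 10.8 and 10.9 CPM at 48 h, 6.85, 8.39 and 6.67 CPM at 72 h, and 3.32, 4.03 and 3.06 CPM at 96 h in the early arm. Its control level fell over the pulse (-2.05 ± 0.22, adjusted p = 1.94e-07). Early exceeded control at 72 h (1.77 ± 0.22, adjusted p = 3.5e-06) and 96 h (1.66 ± 0.26, adjusted p = 2.41e-05), against 0.32 ± 0.18, adjusted p = 0.164 at 48 h. Platr21 was at 3.51, 3.07 and 5.45 CPM at 48 h, 1.17, 0.782 and 1.43 CPM at 72 h, and 0.366, 0.380 and 0.374 CPM at 96 h in the controls and at 6.43, 4.60 and 4.58 CPM at 48 h, 4.32, 3.71 and 3.34 CPM at 72 h, and 1.27, 1.94 and 1.73 CPM at 96 h in the early arm. It too fell over the control pulse (-1.83 ± 0.26, adjusted p = 7.08e-06) and was higher in the early arm at 72 h (1.76 ± 0.26, adjusted p = 2.42e-05) and 96 h (2.13 ± 0.34, adjusted p = 3.37e-05), against 0.40 ± 0.21, adjusted p = 0.144 at 48 h.

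Platr25 (chr13:62671784-62760709, minus strand), the protein-coding member, changed least. Its controls had 33.2, 36.4 and 43.7 CPM at 48 h, 24.7, 24.3 and 26.1 CPM at 72 h, and 27.1, 26.4 and 34.2 CPM at 96 h. The early arm had 37.9, 40.1 and 37.0 CPM at 48 h, 29.9, 32.2 and 29.8 CPM at 72 h, and 26.9, 26.6 and 25.99 CPM at 96 h. It fell over the control pulse (-0.59 ± 0.10, adjusted p = 3.42e-05), and the arms overlapped at 48 and 96 h. Its excess at 72 h (0.29 ± 0.10, adjusted p = 0.0197) was lost without control replicate 1 of 72 h (0.29), control replicate 2 of 72 h (0.28) or early replicate 2 of 72 h (0.25), with adjusted p = 0.0503 to 0.0803.

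The remaining 5 Platr genes stayed under 5 CPM in every group. Platr27 ranged over the libraries from 1.06 to 5.03 CPM, Platr12 from 0 to 4.60, Platr8 from 0.0624 to 4.60, Platr11 from 0.109 to 2.46 and Platr5 from 0 to 2.12 CPM. Each was higher in the early arm at 72 h without overlap of libraries, with log2 fold changes of 1.12 ± 0.25 for Platr27, 1.98 ± 0.30 for Platr12, 1.99 ± 0.37 for Platr8, 1.68 ± 0.29 for Platr11 and 3.07 ± 0.68 for Platr5. Platr8 resembled Platr7 at 48 h, with 0.917, 1.14 and 0.897 CPM in the controls and 4.54, 4.60 and 4.12 CPM in the early arm (2.15 ± 0.28, adjusted p = 4.76e-06). Platr5 was at 0.917, 0.841 and 2.12 CPM in the controls of 48 h and at 0.0533, 0.156 and 0.0650 CPM at 72 h (log2 fold change -3.65 ± 0.64). Without control replicate 2 of 72 h, the log2 fold changes of Platr5 were -4.28 over the control pulse and 3.69 for early against control at 72 h.

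Counted together, 14 of 14 Platr genes fell over the control pulse, 1 of them Platr5, which passed the threshold only through the controls of 48 h. Over all tested genes, 61.4% were called in that step and 30.3% were called lower. Leaving out single libraries gave 11 to 14 falls, and leaving out the controls numbered 3 gave 12. From 72 to 96 h, 7 fell and 0 rose (5 to 8 falls on leaving out single libraries, with 1 rise without control replicate 1 or 2 of 96 h; 7 falls without controls numbered 3), where 54.9% of all genes were called and 27.4% were called lower. Median log2 fold changes over the 14 were -1.49 and -0.98, against 0.01 and -0.01 over all genes. In the early arm, 9 Platr genes fell from 48 to 72 h (background 42.6% called, 21.9% lower) and 10 fell from 72 to 96 h (35.3% called, 17.6% lower).

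Early exceeded control for 9 Platr genes at 48 h, with Platr10 lower, where 43.7% of all genes were called and 23% were called higher. Leaving out single libraries moved the higher calls between 6 and 11, and without the controls numbered 3 there were 11. At 72 h all 14 were higher (13 to 14 on leaving out single libraries, 14 without controls numbered 3; background 44.9% called, 21.7% higher). At 96 h 13 were higher (11 to 13, and 12 without controls numbered 3; background 59.1% called, 29.5% higher). Medians were 0.70, 1.60 and 1.78 at the 3 ages, against 0.02, -0.02 and -0.01 over all genes. These 3 comparisons use separate controls, but the controls of 72 h also enter both control steps, and those of 48 and 96 h 1 each.

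**Figure D2:**
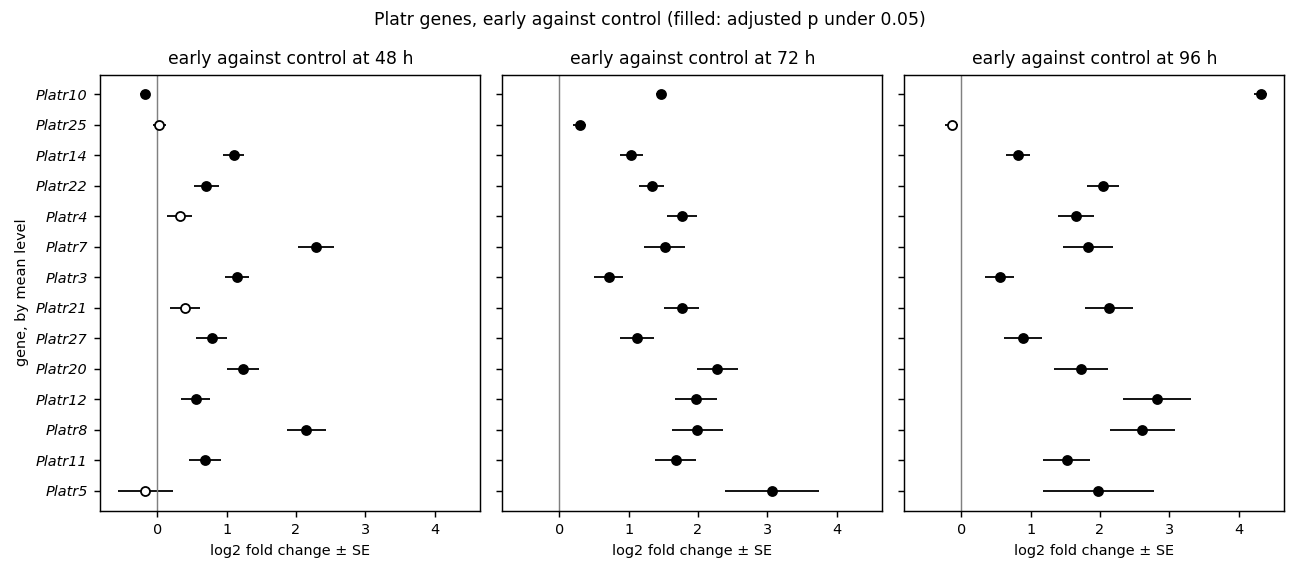
Log2 fold change ± SE (x axis) of early against control for the 14 Platr genes (y axis, ordered by mean level) at 48, 72 and 96 h. Filled points passed an adjusted p under 0.05; at 72 h all 14 are filled and right of 0, and at 96 h Platr10 stands farthest right at 4.32 ± 0.09.

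Matching the arms by time since the pulse gave a like split. At the end of each pulse, all 14 Platr genes were higher in the early arm than in the control arm, also on leaving out any single library and without the controls numbered 3 (background 61.1% called, 29.5% higher; median 2.33). One day after each pulse 13 were higher (13 to 14 on leaving out single libraries; background 69.7% called, 34.3% higher; median 2.95), and Platr25 was not called. The day after the pulse itself changed unequally: of all genes, 44.5% were called for a difference between arms in that step, and of the Platr genes 3 had the higher change in the early arm and 3 the lower. Platr10 fell less in the early arm (3.95 ± 0.12, adjusted p = 8.99e-14), as did Platr22 (1.82 ± 0.29, adjusted p = 6.3e-05). Platr14 (-0.91 ± 0.23, adjusted p = 0.00373) and Platr3 (-1.23 ± 0.28, adjusted p = 0.00182) fell more.

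Among 23 protein-coding pluripotency factors, 16 were higher and 3 lower in the early arm at 72 h, so that 82.6% were called against 44.9% of all genes. At 96 h 15 were higher and 2 lower (73.9% against 59.1%), and at 48 h 12 were higher and 5 lower (73.9% against 43.7%). Over the control pulse 12 fell and 5 rose (73.9% against 61.4%), and from 72 to 96 h 16 fell and 5 rose (91.3% against 54.9%). A list of 42 names of long non-coding RNAs served as context. Of these, 40 matched a gene name. Norad and Cyrano did not, although Cyrano is the member Oip5os1, which is therefore not counted here. The 40 include the antisense member Epb41l4aos, and 33 of them were tested. In the early arm 12 of these were higher and 10 lower at 72 h (66.7% called, against 44.9% of all genes), 10 and 6 at 96 h (48.5% against 59.1%), and 6 and 9 at 48 h (45.5% against 43.7%). Over the control pulse 9 of them rose and 13 fell (66.7% against 61.4%), shares near the background in the last 2 cases. Sums of the epiblast markers at 72 h were 1700 to 1883 CPM in the controls and 2001 to 2028 CPM in the early arm, against 313 to 591 and 1937 to 2031 CPM at 96 h. Outside the controls of 96 h these sums were mostly Pou5f1, while other markers of the list moved both ways. What part the number of epiblast-like cells had in the Platr levels was not tested.

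Called antisense genes went both ways in each of 5 contrasts. They leaned higher from 72 to 96 h in the controls and lower in the early arm at 72 and 96 h. No test of this lean was made. The share called among them was below that over all genes in each of the 5, and what part low counts had in this was not tested. Of 47 tested, 12 rose and 7 fell over the control pulse (40.4% called; over all genes 61.4%, with 31.1% higher and 30.3% lower). From 72 to 96 h 18 rose and 7 fell (53.2%; over all genes 54.9%, with 27.5% higher and 27.4% lower). Early against control, 7 were higher and 9 lower at 48 h (34%; over all genes 43.7%, with 23% higher and 20.7% lower). At 72 h 5 were higher and 15 lower (42.6%; over all genes 44.9%, with 21.7% higher and 23.2% lower), and at 96 h 8 were higher and 17 lower (53.2%; over all genes 59.1%, with 29.5% higher and 29.6% lower). These counts include antisense genes that passed the threshold only through 1 group. Among the 39 others, which still include Igf2os, the pairs of counts were 9 and 6, 12 and 6, 7 and 8, 4 and 12, and 7 and 12. Without the controls numbered 3 the pairs of counts over all 47 were 13 and 8, 19 and 7, 9 and 11, 5 and 15, and 9 and 19. The 5 higher at 72 h became 3 without control replicate 3 or early replicate 2 of 72 h. The 8 higher at 96 h became 5 without control replicate 1 or 2 or early replicate 3 of 96 h, and 4 without early replicate 2. Matched at the end of each pulse, 7 of 47 were higher and 17 lower in the early arm (51.1%, over all genes 61.1%, with 29.5% higher). One day after each pulse 8 were higher and 24 lower (68.1%, over all genes 69.7%, with 34.3% higher). Among the 39 these matched counts were 6 and 13, and 6 and 18. In both matched comparisons the early libraries were the younger ones. By group mean, 28 of 48 were highest in the controls of 96 h, 7 of which became members only through that group; among the 39 others, 21 were. Lhx1os, beside the LIM homeobox gene Lhx1, was not tested because it passed no filter on low counts; it was at 3.29, 3.58 and 0.499 CPM in the controls of 96 h and at most 0.237 CPM in any other library.

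Evx1os, Hoxb3os, Hoxb5os and Igf2os were among the 28 with the highest mean in the controls of 96 h. Evx1os (chr6:52308389-52314832, minus strand) overlaps the start of Evx1, a homeobox gene of the posterior primitive streak. Evx1os was at 0.102, 0.247 and 0.128 CPM at 48 h, 28.2, 35.5 and 20.2 CPM at 72 h, and 66.7, 69.8 and 108 CPM at 96 h in the controls and at 2.18, 2.27 and 2.23 CPM at 48 h, 1.29, 1.51 and 1.73 CPM at 72 h, and 6.63, 10.1 and 7.45 CPM at 96 h in the early arm. It rose over the control pulse (7.38 ± 0.39, adjusted p = 1.55e-11) and to 96 h (1.53 ± 0.18, adjusted p = 1.21e-06), was higher in the early arm at 48 h (3.72 ± 0.59, adjusted p = 5.05e-05) and lower there at 72 h (-4.22 ± 0.26, adjusted p = 6.54e-10) and 96 h (-3.32 ± 0.21, adjusted p = 1.93e-10). Libraries of the arms overlapped at no age. Evx1 moved in the same direction each time, from 0.148 ± 0.0469 to 70.3 ± 26.7 and 109.6 ± 33.6 CPM in the controls. Its rise over the control pulse was the larger of the pair's (ratio change, antisense minus partner, -1.32 ± 0.32, adjusted p = 0.00276, limma), and from 72 to 96 h that of Evx1os was (ratio 0.86 ± 0.32, adjusted p = 0.0381, limma). In the controls of 48 h both genes were at most 0.247 CPM, so that the prior count shapes the first of these ratios.

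Hoxb3os (chr11:96343072-96354691, minus strand) overlaps the end of Hoxb3, and 53.6% of its exon bases lie under Hoxb3 exons. Counting every gene of the other strand, Hoxb3os has 76.2% of its exon bases under exons. Its level was 0, 0.247 and 0.256 CPM at 48 h, 1.39, 3.23 and 22.7 CPM at 72 h, and 116, 124 and 109 CPM at 96 h in the controls, so that replicate 3 stood above replicates 1 and 2 at 72 h. In the early arm it was at 2.03, 1.53 and 1.89 CPM at 48 h, 1.39, 0.570 and 0.953 CPM at 72 h, and 5.30, 2.32 and 4.91 CPM at 96 h. Its rise over the control pulse was 5.68 ± 1.13, adjusted p = 0.000255, and 3.78, adjusted p = 8.12e-05 without control replicate 3 of 72 h. From 72 to 96 h the rise was 3.75 ± 0.50, adjusted p = 5.01e-06, and 5.64, adjusted p = 3.62e-11 without that library. Early was below control at 72 h by -3.18 ± 0.78, adjusted p = 0.00292, and by -1.29, adjusted p = 0.0279 without it. Leaving out control replicate 1 of 48 h, at 0 counts, gave 5.07, adjusted p = 0.00219 over the pulse. At 96 h the arms were far apart (-4.82 ± 0.55, adjusted p = 5.38e-07), as for Hoxb3 (-7.50 ± 0.49, adjusted p = 4.51e-10).

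Hoxb5os (chr11:96291024-96306910, minus strand) was seen in the controls of 96 h alone, at 8.17, 10.8 and 70.5 CPM, with 0 counts in every other library. Replicate 3 held most of it. Against a floor of 3 counts over a group, this was at least 530.1-fold higher than in the controls of 72 h and at least 562-fold higher than in the early libraries of 96 h. Without control replicate 3 of 96 h, the bounds were 169-fold and 179-fold. As only the controls of 96 h made Hoxb5os a member, these bounds describe how it was chosen and are no finding. Its partner Hoxb5 had 18.2, 16.6 and 16.2 CPM in the same libraries and at most 0.130 CPM elsewhere.

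Igf2os (chr7:142659693-142670356, plus strand) overlaps the start of Igf2, an imprinted fetal growth factor. It was at 1.01, 0.782 and 0.910 CPM in the controls of 72 h, 18.7, 20.96 and 33.4 CPM at 96 h and 1.22, 0.947 and 0.520 CPM in the early libraries of 96 h. The controls of 96 h held 89.7% of its counts, with 159 elsewhere, so that its excess there largely describes how it was chosen. Log2 fold changes were 4.74 ± 0.31 from 72 to 96 h and -4.74 ± 0.31 early against control at 96 h. Igf2 had 0.213, 0.104 and 0.0650 CPM in the controls of 72 h and 11.1, 9.67 and 28.1 CPM at 96 h. Its change over that step exceeded that of Igf2os (ratio -1.46 ± 0.55, limma), though at so low a start the prior count shapes the ratio. On the deposited FPKM, scaled by length and depth, where Igf2os is listed at 0 in all 3 controls of 96 h, its log2(FPKM + 0.1) changes turned to -1.50 from 72 to 96 h and 1.09 early against control at 96 h.

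Gad1os, Foxl2os and Zeb2os became members only through the controls of 96 h, and their excess there is no finding. Gad1os, beside the GABA-synthesising enzyme gene Gad1, went from 0.373, 0.469 and 0.325 to 2.28, 2.23 and 2.68 CPM in the controls (log2 fold change 2.58 ± 0.29), with 0.332, 0.189 and 0.173 CPM in the early arm at 96 h. Foxl2os starts 11 bases from Foxl2, a forkhead gene of the ovary, and was at 3.58, 3.04 and 2.99 against 0.442, 0.379 and 0.404 CPM (log2 fold change -2.96 ± 0.26). Zeb2os lies inside Zeb2, a repressor of epithelial genes, and was at 1.46, 1.63 and 2.93 against 0.608, 0.474 and 0.231 CPM (log2 fold change -2.14 ± 0.42). In each case control libraries lay above all early libraries. Over the control pulse the counts started at 2 for Gad1os (ratio 10.9, exact 95% counting interval 2.67 to 96.0) and at 3 for Zeb2os (ratio 12.5, 3.94 to 63.3), intervals that cover counting error only.

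Fzd10os (chr5:128579106-128600693, minus strand) starts 151 bases from Fzd10, a Frizzled receptor for Wnt ligands. In the controls it was at 0.306, 0.346 and 0.513 CPM at 48 h, 7.36, 6.31 and 9.03 CPM at 72 h, and 9.47, 10.3 and 5.30 CPM at 96 h, and in the early arm at 2.32, 2.21 and 2.75 CPM at 48 h, 3.03, 2.73 and 1.79 CPM at 72 h, and 5.69, 5.26 and 5.83 CPM at 96 h. It rose over the control pulse (4.29 ± 0.31, adjusted p = 1.4e-09), as did Fzd10 (4.69 ± 0.19, adjusted p = 3.47e-13). It was higher in the early arm at 48 h (2.65 ± 0.36, adjusted p = 8.41e-06) and lower at 72 h (-1.56 ± 0.23, adjusted p = 2.16e-05). From 72 to 96 h the controls of Fzd10 rose (1.17 ± 0.14, adjusted p = 1.11e-06) and those of Fzd10os did not pass the test (0.16 ± 0.20, adjusted p = 0.525), and the ratio fell (-1.09 ± 0.27, adjusted p = 0.00462, limma). At 96 h Fzd10os was lower in the early arm (-0.59 ± 0.21, adjusted p = 0.0197), a call lost without control replicate 1 of 96 h (-0.49), control replicate 2 of 96 h (-0.42) or early replicate 2 of 96 h (-0.54), with adjusted p = 0.0696 to 0.116.

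Some antisense genes changed beside a partner that was not called. Cep83os (chr10:94671025-94688576, minus strand) shares its start region, printed above, with Cep83, a component of centriole appendages. Cep83os was at 0.458, 0.445 and 0.577 CPM at 48 h, 4.16, 5.06 and 5.46 CPM at 72 h, and 7.32, 7.71 and 6.11 CPM at 96 h in the controls and at 2.13, 1.96 and 1.83 CPM at 48 h, 2.53, 2.49 and 2.74 CPM at 72 h, and 3.43, 3.50 and 2.71 CPM at 96 h in the early arm, without overlap of the arms at any age. It rose 9.88-fold over the control pulse (3.30 ± 0.20, adjusted p = 1.04e-10) and was 4.01-fold higher in early than in untreated libraries at 48 h (2.01 ± 0.22, adjusted p = 7.81e-07), then lower at 72 h (-0.92 ± 0.15, adjusted p = 8.62e-05) and 96 h (-1.13 ± 0.14, adjusted p = 2.28e-06). Cep83 stayed between 53.5 and 64.3 CPM in all 18 libraries and passed the test in none of these contrasts (-0.09 ± 0.06, adjusted p = 0.2 over the control pulse). The ratio changed by 3.14 ± 0.14, adjusted p = 5.97e-10 over the control pulse and by 1.73 ± 0.14, adjusted p = 7.5e-07 at 48 h (limma).

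Frs3os (chr17:47699971-47701996, minus strand) lies inside Frs3, which encodes an adaptor of FGF receptors, with 47.8% of its exon bases under Frs3 exons. It fell in the controls from 1.58, 2.18 and 2.50 to 1.23, 0.938 and 0.910 CPM (-1.004 ± 0.24, adjusted p = 0.00158) and to 0.0406, 0.109 and 0 CPM, the last of which rest on 3 counts. The early libraries of 96 h had 0.884, 0.758 and 0.809 CPM. The controls of 72 h thus held 20.3 times the level of those of 96 h (exact 95% counting interval 6.59 to 101), and the early libraries 16.0 times (5.15 to 80.5). Frs3 was at 6.03 ± 0.304, 6.14 ± 0.193 and 6.31 ± 0.516 CPM in these groups and was not called in either contrast. Without control replicate 2 of 96 h, the fitted change of Frs3os from 72 to 96 h went from -4.17 ± 0.47 to -5.05, adjusted p = 1.64e-06, and that for early against control at 96 h from 3.84 ± 0.49 to 4.73, adjusted p = 4.55e-06.

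Lrp8 has 2 antisense members, which went opposite ways. Lrp8 encodes a receptor of the LDL receptor family for reelin, and it rose over the control pulse (2.19 ± 0.13, adjusted p = 8.2e-11), from 51.9, 52.4 and 41.3 to 218, 239 and 209 CPM. Lrp8os3 (chr4:107793161-107802064, minus strand) starts 197 bases from Lrp8 in the annotation, whereas the deposited coordinates of Lrp8 begin at 107801869, inside Lrp8os3. Lrp8os3 rose with Lrp8, from 0.153, 0.495 and 0.385 to 2.45, 1.82 and 2.66 CPM (2.72 ± 0.35, adjusted p = 2.46e-06), with no called change of the ratio (0.30 ± 0.42, adjusted p = 0.579, limma). Lrp8os2 (chr4:107806033-107823022, minus strand) lies inside Lrp8 and fell, from 1.58, 1.98 and 3.01 to 0.373, 0.156 and 0.455 CPM (-2.73 ± 0.40, adjusted p = 1.11e-05; ratio -4.62 ± 0.46, adjusted p = 1.36e-06, limma). At 72 h Lrp8os2 was higher in the early arm (2.23 ± 0.42, adjusted p = 0.000297) and Lrp8os3 lower (-1.89 ± 0.31, adjusted p = 8.43e-05). Both share Lrp8 as partner, so their ratios are not independent. The excess of Lrp8os2 at 96 h (1.29 ± 0.51, adjusted p = 0.0387) was lost without control replicate 2 of 96 h (0.98), control replicate 3 of 96 h (1.32), early replicate 2 of 96 h (1.25) or early replicate 3 of 96 h (0.94), with adjusted p = 0.0615 to 0.176.

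Abhd11os (chr5:135012114-135013253, minus strand) overlaps the end of Abhd11, which encodes a mitochondrial hydrolase, by 62 bases. It was at 2.39, 2.72 and 3.01 CPM at 48 h, 4.26, 4.12 and 4.68 CPM at 72 h, and 9.18, 8.14 and 10.04 CPM at 96 h in the controls and at 1.55, 1.96 and 1.54 CPM at 48 h, 3.62, 4.03 and 4.05 CPM at 72 h, and 5.19, 5.68 and 5.54 CPM at 96 h in the early arm. It rose over both control steps (0.69 ± 0.14, adjusted p = 0.000304, and 1.07 ± 0.12, adjusted p = 8.28e-07), where Abhd11 was not called. Early against control, the pair went opposite ways at 48 h (-0.68 ± 0.16, adjusted p = 0.00163 for Abhd11os, 0.42 ± 0.07, adjusted p = 7.54e-05 for Abhd11) and at 96 h (-0.73 ± 0.12, adjusted p = 3.88e-05 and 0.28 ± 0.07, adjusted p = 0.00252). For Abhd11os, libraries of the arms did not overlap at either age.

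Nphs1os moved with its partner. It (chr7:30462164-30465591, minus strand) lies inside Nphs1, the gene of nephrin, an adhesion protein of the kidney filter, with 44.6% of its exon bases under exons of Nphs1. In the controls it was at 3.16, 3.41 and 6.67 CPM at 48 h, 1.76, 2.55 and 2.73 CPM at 72 h, and 0.447, 0.326 and 0.561 CPM at 96 h, and in the early arm at 21.1, 18.4 and 19.1 CPM at 48 h, 10.4, 10.4 and 11.9 CPM at 72 h, and 4.37, 4.26 and 4.33 CPM at 96 h. Early exceeded control by 2.18 ± 0.19, adjusted p = 4.8e-08 at 48 h, 2.22 ± 0.22, adjusted p = 2.08e-07 at 72 h and 3.27 ± 0.31, adjusted p = 5.4e-08 at 96 h. Nphs1 gave 2.26 ± 0.21, 2.28 ± 0.23 and 2.82 ± 0.28, and the ratio was not called in any of the 5 contrasts tested. Wt1os starts 19 bases from Wt1, a zinc finger factor, and went over the control pulse from 1.63, 2.37 and 1.67 to 0.267, 0.313 and 0.260 CPM (log2 fold change -2.73 ± 0.36), while Wt1 fell (-3.82 ± 0.14, adjusted p = 1.19e-13). Early against control, Wt1os was at -1.38 ± 0.30 at 48 h and 1.82 ± 0.39 at 72 h. As its controls of 48 h made it a member, these are descriptions.

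Pcsk2os1 and Dnmt3bos overlap the starts of their partners. Pcsk2os1, beside the prohormone protease gene Pcsk2, was at 2.85, 2.37 and 3.21 CPM at 48 h, 2.29, 2.14 and 1.105 CPM at 72 h, and 0.610, 0.271 and 0.873 CPM at 96 h in the controls and at 0.580, 0.552 and 0.629 CPM at 48 h, 2.83, 2.44 and 2.68 CPM at 72 h, and 1.99, 2.56 and 2.19 CPM at 96 h in the early arm. It was lower in the early arm at 48 h (-2.24 ± 0.30, adjusted p = 7.63e-06), not called at 72 h (0.50 ± 0.25, adjusted p = 0.114) and higher at 96 h (1.95 ± 0.30, adjusted p = 2.18e-05). Dnmt3bos, beside the de novo DNA methyltransferase gene Dnmt3b, had a log2 fold change of 0.05 ± 0.40 over the control pulse and -1.79 ± 0.50 from 72 to 96 h, and Dnmt3b fell at both steps (-2.28 ± 0.07, adjusted p = 1.15e-14, and -1.74 ± 0.07, adjusted p = 8.21e-13). Early against control at 96 h, Dnmt3bos was at 1.62 ± 0.51.

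The antisense genes with most reads were Oip5os1, Slc7a6os and Brip1os. Oip5os1, the RNA known as Cyrano, which directs the decay of a microRNA, was at 175 ± 9.45, 165 ± 16.1 and 197 ± 13.9 CPM in the controls and 159.6 ± 4.10, 138 ± 9.32 and 166 ± 15.3 CPM in the early arm. Brip1os, beside the DNA helicase gene Brip1, was at 30.1, 36.6 and 30.3 CPM in the controls of 72 h and at 57.3, 60.3 and 58.4 CPM at 96 h (0.86 ± 0.08, adjusted p = 4.86e-08), above the early libraries of 96 h at 37.4, 38.3 and 38.2 CPM (-0.63 ± 0.08, adjusted p = 1.58e-06). The protein-coding Slc7a6os, which shares its name with an amino acid transporter gene, was at 60.1, 58.3 and 54.0 CPM in the controls of 48 h and 70.5, 65.1 and 68.8 CPM in the early arm (0.25 ± 0.06, adjusted p = 0.00177). It fell over the control pulse (-0.29 ± 0.06, adjusted p = 3e-04) while Slc7a6 rose (0.73 ± 0.09, adjusted p = 1.51e-06). Wdr83os, a protein-coding gene of the endoplasmic reticulum, and Cebpzos passed the test in none of the 10 contrasts, with ranges over all libraries of 15.3 to 27.7 and 12 to 14.7 CPM.

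A further 4 members reached 5 CPM in some group. Rab26os, inside the vesicle GTPase gene Rab26, was at 4.35 ± 0.306 CPM in the controls and 2.19 ± 0.196 CPM in the early arm at 48 h (-0.99 ± 0.22, adjusted p = 0.00108) and lower in the early arm at 72 h too (-1.11 ± 0.20, adjusted p = 0.000246), where Rab26 was not called. Rab10os, which overlaps the end of another GTPase gene, Rab10, was higher in the early arm at 48 h (0.44 ± 0.12, adjusted p = 0.00528). Tmem147os starts 39 bases from Tmem147 and was at 6.11 ± 0.0200 CPM in the controls and 4.52 ± 0.582 CPM in the early arm at 96 h. Epb41l4aos ranged over all libraries from 11.4 to 29.6 CPM. Calls of Tmem147os and Epb41l4aos in the control step from 72 to 96 h and in the early comparison at 96 h, where made, were each lost on leaving out single libraries: Tmem147os from 72 to 96 h without control replicate 1 of 72 h (0.43), control replicate 3 of 72 h (0.39), control replicate 1 of 96 h (0.43) or control replicate 2 of 96 h (0.43), with adjusted p = 0.0561 to 0.0762, Tmem147os at 96 h without control replicate 1 of 96 h (-0.43), control replicate 2 of 96 h (-0.43), early replicate 2 of 96 h (-0.37) or early replicate 3 of 96 h (-0.38), with adjusted p = 0.0526 to 0.0931, and Epb41l4aos from 72 to 96 h without control replicate 2 of 72 h (-0.49), control replicate 3 of 72 h (-0.49), control replicate 1 of 96 h (-0.47) or control replicate 2 of 96 h (-0.35), with adjusted p = 0.053 to 0.12.

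**Figure D3:**
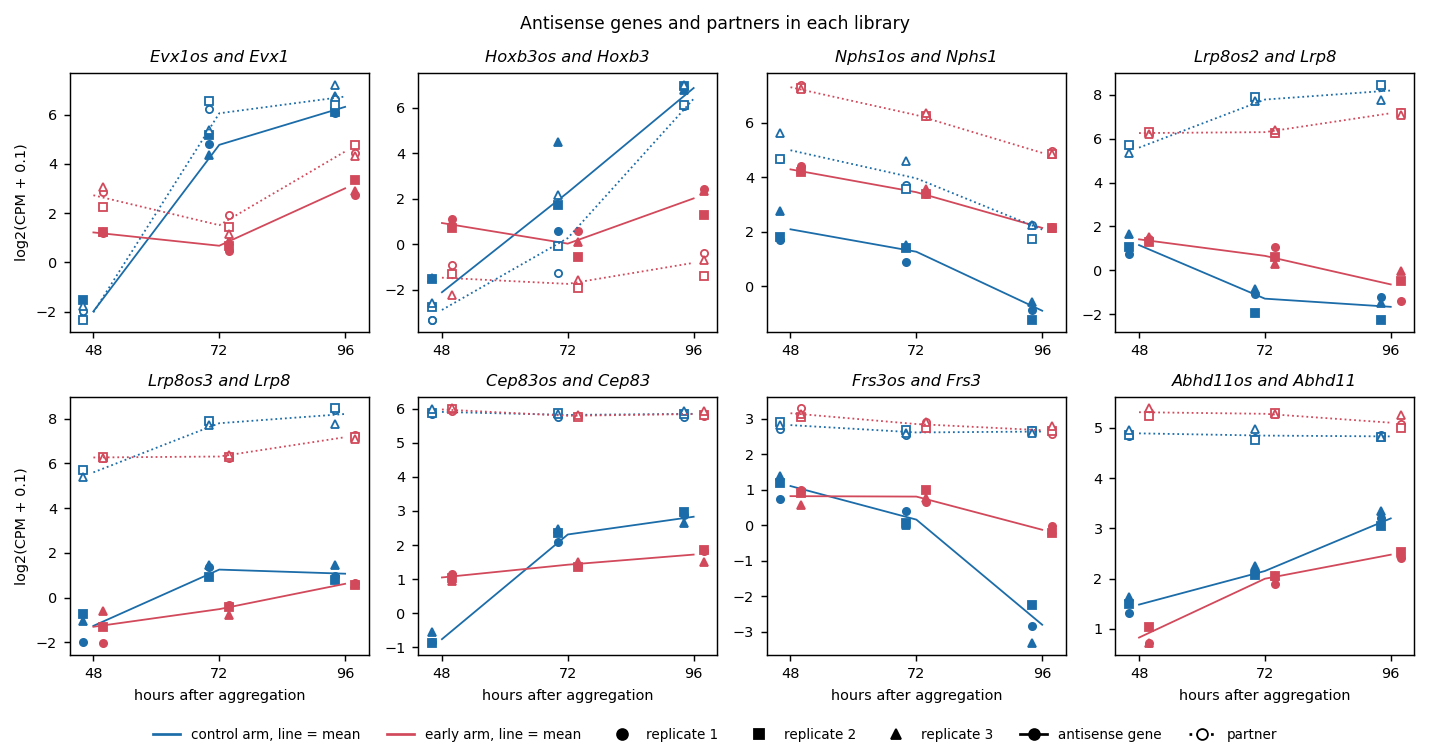
Log2(CPM + 0.1) (y axis) against hours after aggregation (x axis) for 8 antisense genes (filled points, solid lines) and their partners (open points, dotted lines), with single libraries as points and group means as lines, blue for the control arm and red for the early arm. Cep83 stays between 53.5 and 64.3 CPM while Cep83os rises in the controls, and Lrp8os2 falls where Lrp8 rises.

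Set against the partners as a whole, called pairs mostly moved the same way. Both genes were tested in 45 pairs. Over the control pulse both were called in 14 pairs, in the same direction in 11. From 72 to 96 h it was 14 of 19, and early against control 8 of 9 at 48 h, 9 of 12 at 72 h and 14 of 19 at 96 h. Among 2652 other pairs of genes on opposite strands that overlap or start within 1 kb of each other, the same-direction share of pairs with both genes called was 62.7%, 66.3%, 65.6%, 69.2% and 65.3%. No test of the difference between these shares was made. The 45 pairs, here and in the split by distance, include antisense genes that passed the threshold only through 1 group. Counts of pairs without them were not made. Where starts of the annotated genes lay within 1 kb, 6 of 6, 5 of 6, 4 of 4, 3 of 3 and 5 of 6 called pairs agreed in direction, and where they lay farther apart 5 of 8, 9 of 13, 4 of 5, 6 of 9 and 9 of 13. This split depends on the start used. Lrp8os2 counts as farther apart, although 138 bases separate it from the RefSeq start of a shorter Lrp8 transcript. Its pair was called in opposite directions over the control pulse and early against control at 72 and 96 h. Pairs called in opposite directions in at least 1 of the 5 contrasts were those of Slc7a6os, Lrp8os2, Rab10os, Sp3os, Oip5os1, Epb41l4aos, Tmem147os, Abhd11os and Arhgap33os.

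The ratio of antisense to partner was called by limma in 25 of 45 pairs over the control pulse, against 51.2% of all opposite-strand pairs. It was called in 24 from 72 to 96 h (background 44%), in 17 early against control at 48 h (32.3%), in 14 at 72 h (31.1%) and in 22 at 96 h (49.3%). These counts, too, include antisense genes that passed the threshold only through 1 group. Leaving out single libraries gave 11 to 15 at 48 h, the lowest without control replicate 1 or early replicate 2 of 48 h, 9 to 13 at 72 h, the lowest without control replicate 2 or early replicate 1 of 72 h, and 16 to 21 from 72 to 96 h.

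**Figure D4:**
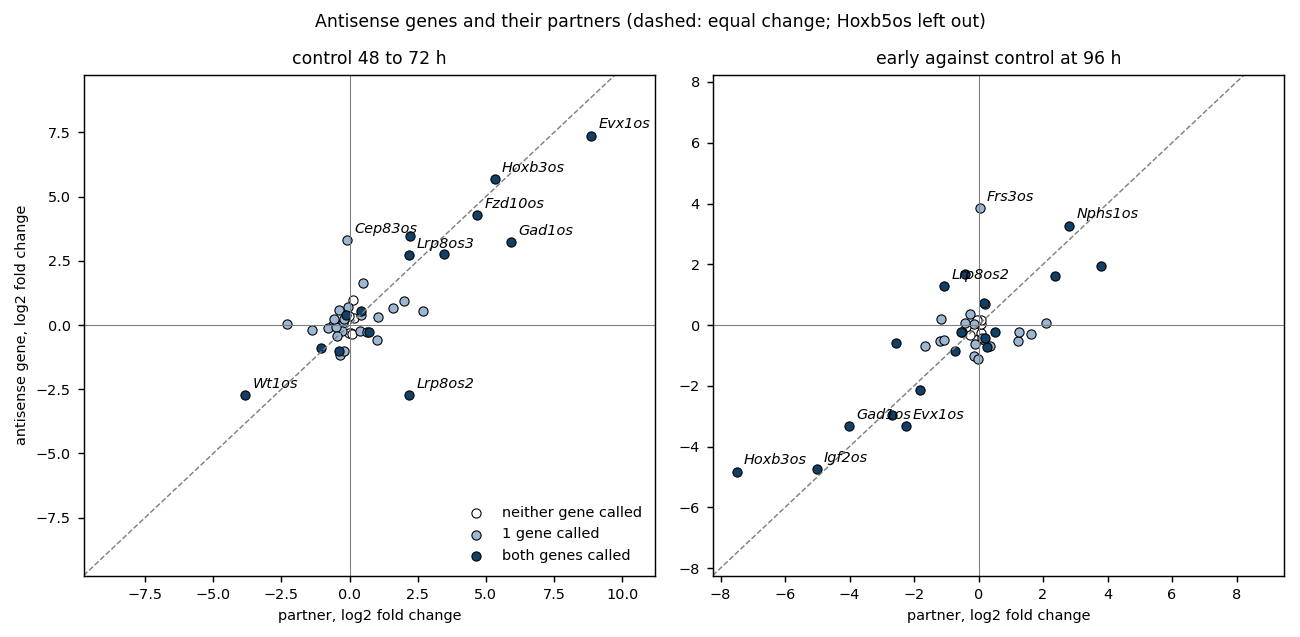
Log2 fold change of each antisense gene (y axis) against that of its partner (x axis) over the control pulse (left) and for early against control at 96 h (right), with the dashed line marking equal change and the fill marking how many genes of the pair were called. Lrp8os2 lies in the opposite quadrant on both sides, Cep83os and Frs3os lie near 0 on the x axis, and Hoxb5os, absent from most groups, is left out.

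Levels of the genes of a pair can be compared per length only, in the deposited FPKM values. In 26 pairs both genes were above 0 FPKM in every group. By group means, the partner was higher in all groups in 15 of them, the antisense gene in 5 (Brip1os, which is at 0 FPKM in 1 library with counts, Epb41l4aos, Prox2os, Slc7a6os and Wdr83os), and the order differed between groups in 6. Slc7a6os had 27.7 ± 1.06 against 6.51 ± 1.42 FPKM for Slc7a6 in the controls of 48 h and 25.6 ± 2.59 against 20.03 ± 1.35 FPKM at 96 h. Evx1os had 22.5 ± 6.72 against 30.8 ± 9.86 FPKM for Evx1 in the controls of 96 h, a difference within the larger SD.

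FPKM and counts disagreed for part of the antisense genes. At 0 FPKM in all 18 libraries were listed 14 of 48 antisense genes and 0 of 14 Platr genes, although they had 188 to 4484 counts in sum. Over all 14902 genes with at least 180 counts the share was 5.09%. These 14 were Appbp2os, Ccdc142os, Cebpzos, Dhrs13os, Frs3os, Ino80dos, Lrp8os3, Phf2os1, Phtf1os, Sp3os, Tomm6os, Zbtb11os1, Zeb2os and Zfp335os. Of these, 13 had exon bases under exons of the other strand in the annotation, as did 30 of all 48. The exception, Lrp8os3, is overlapped by the deposited coordinates of Lrp8. Another 10 antisense genes were at 0 FPKM in some libraries that had counts. Among them, Igf2os was listed at 0 FPKM in all 3 controls of 96 h, in which it had most of its counts. Abhd11os was at 0 FPKM in 15 libraries and Nphs1os and Rab10os in 6 each, although all 3 genes had counts in every library. For called changes of 12 genes FPKM gave no value, and the changes given above rest on counts unless FPKM is named.

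**Figure D5:**
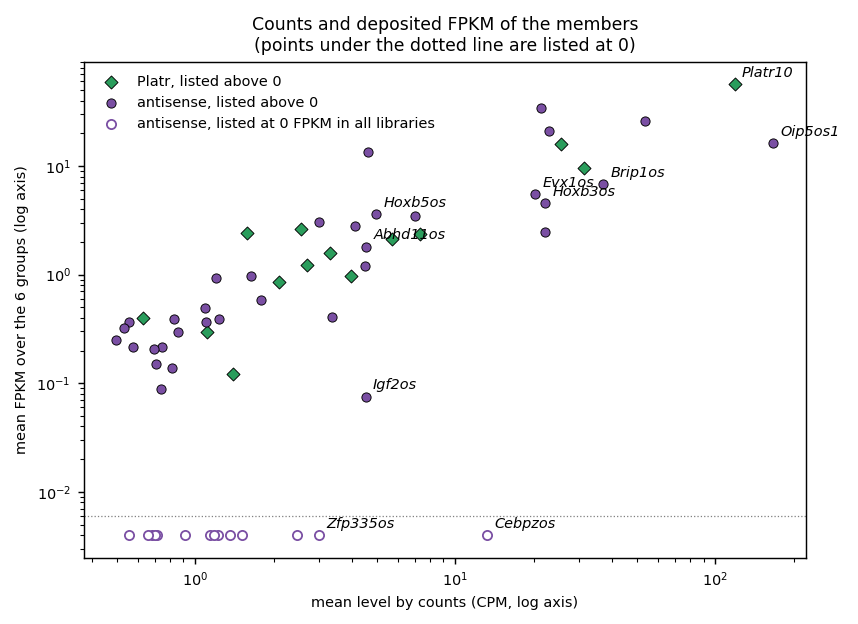
Mean deposited FPKM over the 6 groups (y axis, log scale) against mean level by counts in CPM (x axis, log scale) for the 62 members, diamonds for Platr and circles for antisense genes. Open circles under the dotted line are the 14 antisense genes listed at 0 FPKM in every library, with Cebpzos the one of most reads.

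Counts of overlapping genes depend on strand. The library kit marks strand, and the counting setting is not given in the sources used here. Of 209 genes lying at least 95% under exons of an opposite-strand gene of at least 10 CPM, the median level was 0.00231 CPM, 101 were at 0 in all libraries and 9 reached 1 CPM, led by Slirp at 44.1 CPM and Pdcd2 at 31.5 CPM. In the annotation, 32 members lay under no exon of the other strand (all 14 Platr genes and 18 antisense genes), 30 lay partly under one, and 5 with at least 50% of their exon bases. Cep83os, Fzd10os, Lrp8os2, Brip1os, Gad1os and Wt1os had no exon base under their partners' exons. Under exons of other opposite-strand genes lay 20.2% of Brip1os, 5.24% of Cep83os and 0.74% of Wt1os. Lrp8os3 had no such base in the annotation, but the deposited coordinates of Lrp8 begin at 107801869, inside Lrp8os3. Their exon overlap was not measured. How reads shared by both strands were assigned was not tested.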

How the data were processed

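PolyA RNA of 18 mouse gastruloid libraries, 3 in each of 6 groups, was sequenced after a strand-marking ligation kit, per the labels' protocols. The authors deposited unnormalized counts for 55385 genes and, in a second table, FPKM (scaled by length and depth) for 55468 genes. The submitters' processing notes name cutadapt 4.0, STAR 2.7.8a, Cufflinks 2.2.1 and the build mm10, without settings. Coordinates and annotation are of mm10 and GENCODE M21, and 0 sample columns were unused.

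Members, lists and named genes were chosen with earlier results of these data known. Named were all Platr genes, antisense genes of embryonic regulators, those with at least 5 CPM in a group, the 5 largest called changes per contrast, and pairs called in opposite directions; those not described singly are counted. Genes were filtered with filterByExpr and scaled by TMM, which left 16041 genes and 61 members. Counts were fitted over all libraries with edgeR 4.0.16 (R 4.3.3), 10 contrasts, 2-sided, with calls at an adjusted p under 0.05. SEs are the log2 fold change over the root of F. Ratios of antisense to partner (log2 CPM, prior count 2) were tested with limma 3.58.1 over 45 name pairs and 2652 other opposite-strand pairs. A fold against a group at 0 used a floor of 3 counts over the group. Scripts were tested on simulated data. Tables and figures used Python 3.11.15, pandas 2.3.3, numpy 2.4.6 and matplotlib 3.10.9. Alternatives were DESeq2 1.42.0, its size factors, other filters, the FPKM values with limma, a replicate block, fits of the compared groups only and each library left out. Leaving out the 3 control libraries numbered 3 was added after seeing the data.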

Additional observations from a re-analysis of the deposited data

Results flagged for a closer look

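For 19 members, the change over the day after the pulse differed between the arms by a test of that difference itself, the early step from 48 to 72 h minus the control step from 72 to 96 h (edgeR's quasi-likelihood test with Benjamini-Hochberg adjustment). Of all genes, 44.5% were called in the same test. The arms differ in age at that step as well as in the time of the pulse, and the 2 cannot be told apart.

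Values above 0 mean that the early arm rose more or fell less. They were 4.16 for Frs3os, whose controls of 96 h hold 3 counts, 3.95 for Platr10, 3.84 for Pcsk2os1, 2.15 for Dnmt3bos, 1.89 for Arhgap33os, 1.82 for Platr22, 1.54 for Nphs1os and 1.0996 for Platr21. For Pcsk2os1 the directions were opposite, with a rise in the early arm (2.16 ± 0.30, adjusted p = 1.84e-05) and a fall in the controls (-1.69 ± 0.31, adjusted p = 0.000167). For Frs3os it was 5.05, adjusted p = 1e-05 without control replicate 2 of 96 h. The call of Platr21 was lost without control replicate 1 of 72 h (1.07), control replicate 3 of 72 h (0.92), control replicate 1 of 96 h (1.09), control replicate 2 of 96 h (1.12), control replicate 3 of 96 h (1.103), early replicate 2 of 48 h (1.03), early replicate 3 of 48 h (1.02), early replicate 1 of 72 h (1.003) or early replicate 2 of 72 h (1.12), with adjusted p = 0.0592 to 0.116. That of Arhgap33os was lost without control replicate 3 of 72 h (1.41) or control replicate 1 of 96 h (1.29), with adjusted p = 0.0875 to 0.096.

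Values below 0 were -4.70 for Hoxb3os, -3.68 for Igf2os, -2.10 for Evx1os, -2.05 for Kank4os, -1.61 for Foxl2os, -1.23 for Platr3, -0.91 for Platr14, -0.91 for Brip1os, -0.54 for Platr25, -0.48 for Slc7a6os and -0.46 for Oip5os1. For Hoxb3os it was -6.59, adjusted p = 2.64e-08 without control replicate 3 of 72 h. Foxl2os and Dnmt3bos became members only through their highest group, which enters this difference, and Igf2os had 159 counts outside its own. Kank4os fell over the early step (-1.71 ± 0.25, adjusted p = 2.9e-05) from 2.08, 1.84 and 1.89 to 0.496, 0.570 and 0.715 CPM, and its controls were at 0.586, 0.417 and 0.390 and 0.650, 0.434 and 0.686 CPM.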

How the results depend on the processing

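Of 309 called changes of members, 196 kept their call and direction under every alternative that gave a value, 108 lost the call under at least 1, and 5 reversed. All 5 reversals were on FPKM (log2(FPKM + 0.1), then log2(FPKM + 1)): Brip1os after withdrawal, 1.03 and 0.084, and Igf2os from 72 to 96 h, -1.50 and -0.24, at 96 h early against control, 1.09 and 0.19, one day after the pulses, 0.79 and 0.11, and after withdrawal, 1.83 and 0.30; these genes are listed at 0 FPKM in libraries with counts. On FPKM, fewer members have values, and calls numbered 17 and 16 (against 32) from 72 to 96 h in the controls, 11 and 10 (17) and 15 and 14 (27) in the steps of the early arm, and 17 and 16 (26), 20 and 19 (34) and 19 and 19 (38) early against control at 48, 72 and 96 h. Leaving out single libraries gave, against counts of calls in the same order of contrasts as in the report, 30 to 35 (33) and 25 to 35 (32) in the control steps, 21 to 26 (26), 29 to 31 (34) and 29 to 39 (38) early against control, 13 to 17 (17) and 22 to 27 (27) in the early steps, 36 to 37 (38) at the end of the pulses, 44 to 50 (45) a day later and 17 to 21 (19) for withdrawal. Ratio calls ranged over 19 to 25 (25), 16 to 21 (24), 11 to 15 (17), 9 to 13 (14) and 19 to 22 (22). What same-numbered replicates share is not in the labels. Their deviations correlated at a median of 0.024, over 0.1 in 3 of 45 pairs of groups, against a median of -0.008 for different numbers. Within the control arm the 9 pairs were at 0.0125 to 0.158, with a median of 0.062. With a replicate block, 34, 32, 26, 35, 38, 17, 29, 38, 46 and 19 members and 25, 22, 17, 15 and 21 ratios were called. Depth limits the folds of Gad1os, Zeb2os and Frs3os, whose lowest control groups hold 2, 3 and 3 counts. It also limits folds and ratios over the control pulse of Evx1os and Hoxb3os, at most 0.247 and 0.256 CPM in the controls of 48 h. The same holds for Igf2, at most 0.213 CPM in those of 72 h.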
